A study of Arabidopsis thaliana with 13 samples.

Results

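The genes described here are those whose signal was higher in Col-0 seedlings at both times after the cytokinin 6-benzyl adenine (BA) than with its solvent. They were chosen by their measured signals on 6 arrays. A probe set was taken where the lowest of the 4 BA arrays, at 15 and at 120 min, was at least 1.5 times the higher of the 2 solvent arrays and at least 50 units. Type-A response regulators, plastid genes, the UGT, PRX, ALDH and expansin families, AZG1 and 6 further loci were left out by name. Of 22746 probe sets, 41 met the thresholds (0.18% of all), 6 of these fell under the classes left out, and 35 remained. The same ratio turned downward, with solvent arrays of at least 50 units, was met by 12 probe sets (0.0528%).

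Transcripts of whole Arabidopsis thaliana seedlings from liquid culture were measured on 13 Affymetrix arrays. Wild-type Col-0 had 2 arrays each with solvent for 2 h, with BA for 15 min and with BA for 120 min, and the labels state 6 days of growth only for its BA-treated seedlings. The other plants carried the 35S::CKX1 transgene and overexpress an enzyme that breaks down cytokinins, cytokinin oxidase, and they had 4 arrays with BA for 15 min and 3 with solvent for 2 h. The 35S promoter drives expression in most tissues, and the labels do not say how many lines were used. The 2 h of solvent equal the longer BA treatment, so the 15 min samples have no solvent control of their own time. One Col-0 120 min array carries the control solution in its source field and was placed by its title. Whether replicates were separate cultures is not stated in the labels. The p-values then cover only the differences among these arrays, which may be technical, and their small number limits the precision of every value.

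Cytokinin is sensed by membrane-bound histidine kinases, which pass a phosphate through carrier proteins to the type-B response regulators in the nucleus. These transcription factors switch on a first wave of genes within minutes, among them the type-A regulators, which dampen the pathway, and enzymes that degrade the hormone. Genes that respond early and stay high for hours are therefore the usual candidates for direct or sustained output, and BA is a synthetic cytokinin often used to find them. In whole seedlings, a change in cell number of a type and a change in RNA per cell cannot be told apart.

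Of the 35 probe sets, 12 match 1 gene in the annotation used, 1 matches a nuclear and a mitochondrial gene and 22 are not listed, so that their genes are not named here. The exclusions by name could not be applied to those 22. Among the 6 left out were ARR15, a type-A regulator, at a ratio of 5.12 between the lowest BA and the highest solvent array, and AT1G21830 with 2 probe sets. AT3G19850, AT1G68670 and the plastid gene ccsA made up the rest. Within the set the ratio ran from 1.52 to 4.36 with a median of 1.68, and the highest solvent signal from 34.7 to 425.2 units with a median of 69.6. Most members were thus moderately bright probe sets not far above the threshold of 1.5 in this ratio of extreme arrays. The median ratio of group means to solvent was larger, 2.31 at 15 min and 2.75 at 120 min.

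Members just inside the ratio were AT2G04690 at 1.52, AT5G24890 at 1.53 and AT4G15680 at 1.53, and just outside it lay the unlisted 253872_at, 252618_at and 256299_at at 1.49, 1.49 and 1.48. Just inside the level were 254250_at, 251374_at and 264040_at, with lowest BA signals of 59.6, 61.9 and 78.6 units. AT5G57340, UPB1, a bHLH transcription factor that regulates peroxidase genes in roots, and GAT1_2.1 missed it with 46.8, 45.0 and 39.2 units.

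**Figure D1:**
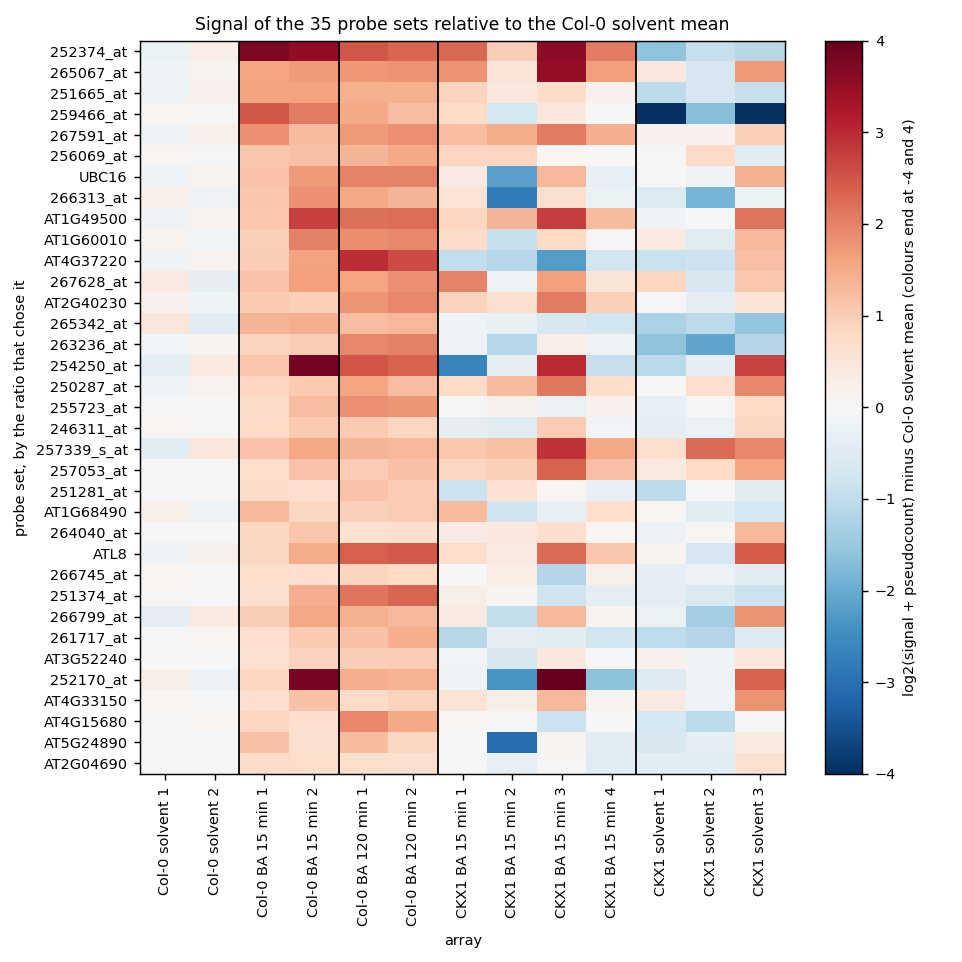
Colour map of log2(signal + 3.39) minus the mean of the Col-0 solvent arrays for the 35 probe sets (rows, in order of the ratio that chose them) on 13 arrays (columns, grouped by genotype and treatment), with colours ending at −4 and 4. All Col-0 BA columns are red because the rule asked for it, while in CKX1 the arrays numbered 3 stand apart from the others of their group in many rows.

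The size of the set depended on single arrays, most on 1 of them. Without Col-0 15 min array 1 the same rule took 642 probe sets, against 38 without 15 min array 2, 37 without 120 min array 1 and 42 without 120 min array 2. Leaving out a solvent array gave 153 without array 1 and 157 without array 2. With 15 min array 1 as the only BA array the rule took 221. Leaving out arrays can only relax the rule, so all these counts had to be at least as large as that of the full set. The other 3 Col-0 BA arrays had 25S ribosomal RNA control signals of 92.5, 695.9 and 548.2 units, and 15 min array 1 had 16.1 units, against 46.2 and 18.1 units in the solvent arrays. In CKX1 the control was 803.7 units in 15 min array 3 and 11.1 to 21.0 units in the other 15 min arrays, against 260.3 units in solvent array 3 and 2.4 and 14.5 units in the other solvent arrays. Array medians over all probe sets ran from 30.5 to 39.5 units.

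In CKX1, whose arrays had no part in the thresholds of the rule, the members also differed between arrays of a group. There, solvent array 3 lay above both other solvent arrays for 25 of the 35 (71.4%), against 33.2% of 15922 probe sets tested. Likewise 15 min array 3 was the highest of its group for 22 of 35 (62.9%), against 30.2%. Between the Col-0 15 min arrays, both of which the rule used, array 2 was above array 1 for 24 of 35 (68.6%), against 50.8% of the 7849 probe sets with all BA signals at 50 units or more. The median of the 35 was 122.9 units in CKX1 15 min array 3 and 74.5 to 84.1 units in the other 15 min arrays, against 90.6 units in solvent array 3 and 48.9 and 49.4 units in the other solvent arrays. What part the arrays rather than BA had in the choice of members was not tested.

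Markers of root and green tissue also differed between the Col-0 arrays. EXPA7, a root hair expansin, had 135.9 and 163.0 units with solvent, 148.1 and 40.4 units after 15 min and 39.8 and 32.6 units after 120 min. EXPA18, of the same kind, had 174.0 and 221.7 units with solvent, 202.8 and 64.3 units after 15 min and 63.5 and 67.4 units after 120 min. CO2, a marker of the root cortex, had 47.9 and 38.4 units with solvent, 58.0 and 197.1 units after 15 min and 121.7 and 115.6 units after 120 min. Both root hair genes were thus lower, and CO2 was higher, in the 3 Col-0 BA arrays other than 15 min array 1, which lay near the solvent arrays. PYK10, a root beta-glucosidase, ranged from 2228.6 to 3862.6 units over the 4 BA arrays, against 3163.2 and 3267.4 units with solvent. LHCB4.1, an antenna protein of green tissue, ranged from 3940.7 to 8940.2 units over the BA arrays, against 4233.5 and 4977.9 units with solvent, and was lowest in 15 min array 1. The part of these differences in the members' values was not tested.

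**Figure D2:**
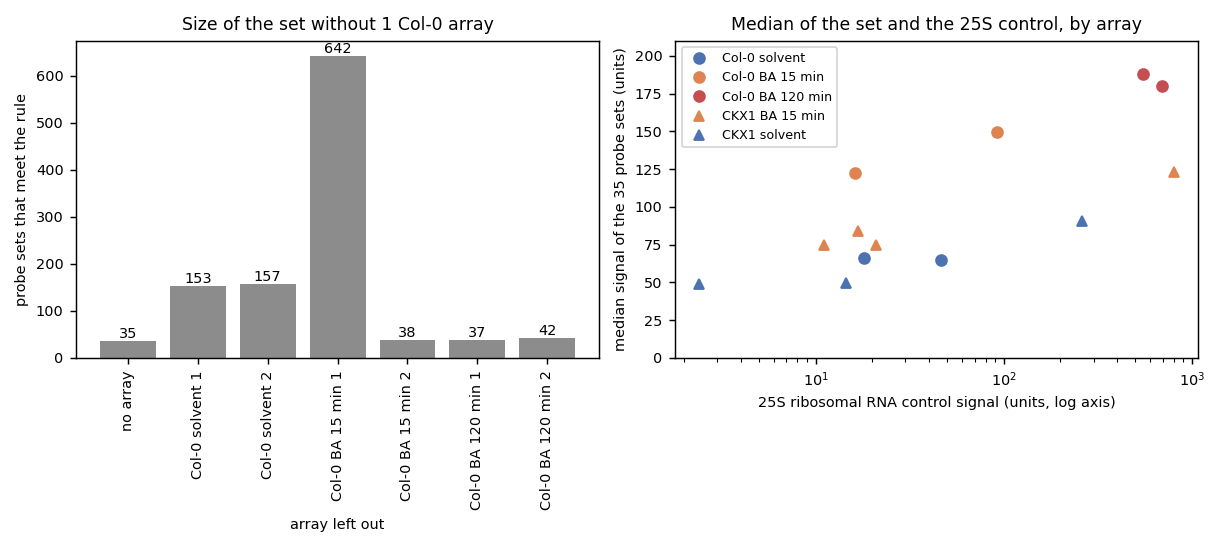
Left, bars give the number of probe sets that meet the rule with all Col-0 arrays (35) and with each array left out, where leaving out 15 min array 1 gives 642. Right, each point is 1 array, with the 25S control signal on a log axis (units) against the median signal of the 35 probe sets (units), and within CKX1 the arrays numbered 3 lie furthest to the right and highest in their groups.

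Between 15 and 120 min the members followed different courses. Both 120 min arrays lay above both 15 min arrays for 15 of the 35 (42.9%), against 22.0% of the 7849 probe sets with all BA signals at 50 units or more. They lay below for 6 of 35 (17.1%), against 22.3%, and overlapped for 14. The median ratio of group means to solvent was 2.31 at 15 min (range 1.64 to 12.8) and 2.75 at 120 min (range 1.58 to 7.33). These values come from the arrays that chose the set and are a description without a test. The 2 arrays at 15 min were unlike each other. Across all probe sets, 15 min array 1 correlated at 0.974 with solvent array 1 and at 0.923 with 15 min array 2. The latter correlated at 0.961 with 120 min array 1. The part of this difference in the courses was not tested.

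The listed genes fall into a few kinds. Protein tagging for breakdown is represented by UBC16, a ubiquitin-conjugating enzyme, and ATL8, a membrane-bound RING-type ubiquitin ligase. UBC16 had 35.2 and 42.8 units with solvent in Col-0, 89.0 and 134.4 units after 15 min and 164.9 and 163.8 units after 120 min. The CKX1 arrays had 50.5, 5.9, 103.1 and 30.2 units after 15 min of BA, against 38.3, 34.6 and 109.3 units with solvent. The CKX1 groups overlapped throughout, the highest array of each being number 3. In the RefSeq gene table UBC16 overlaps CKX5, the gene of a cytokinin oxidase, and a non-coding RNA gene. That table gives no strand, and which of these transcripts the probes read was not tested.

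ATL8 climbed in steps in Col-0, with 58.0 and 78.1 units with solvent, 122.2 and 196.1 units after 15 min and 368.7 and 380.5 units after 120 min. CKX1 seedlings had 112.5, 86.7, 334.5 and 150.4 units after 15 min, against 73.4, 40.8 and 378.7 units with solvent. The solvent array numbered 3 was thus as high as Col-0 after 120 min without any BA, and in the other solvent arrays ATL8 lay below all 4 treated arrays.

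Enzymes of metabolism made up a further kind. AT2G40230, a member of the BAHD acyltransferase family, had 66.6 and 51.6 units with solvent in Col-0, 126.1 and 116.8 units after 15 min and 207.3 and 230.7 units after 120 min. Its CKX1 signals were 114.9, 92.9, 258.9 and 115.8 units after BA, against 54.8, 45.1 and 85.3 units with solvent. Every treated CKX1 array lay above every solvent one, which held for no other listed gene of the set.

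AT4G33150 encodes the bifunctional enzyme that starts lysine breakdown, lysine-ketoglutarate reductase and saccharopine dehydrogenase. Its Col-0 signals were 70.6 and 62.5 units with solvent, 108.9 and 153.8 units after 15 min and 115.2 and 128.1 units after 120 min. Its CKX1 signals were 99.0, 79.6, 167.5 and 71.8 units after BA, against 86.0, 59.0 and 237.5 units with solvent, and these groups overlapped. AT2G04690, of the pyridoxamine phosphate oxidase-like family, had 75.6 and 70.7 units with solvent in Col-0, 124.9 and 121.5 units after 15 min and 120.6 and 114.9 units after 120 min, so its level hardly moved between the times. With BA the CKX1 arrays gave 73.1, 57.9, 75.3 and 53.6 units, against 53.8, 53.8 and 113.2 units with solvent.

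AT4G15680 encodes a glutaredoxin of the plant-specific CC type, small proteins that act on thiols and on transcription factors. It had 75.5 and 83.9 units with solvent in Col-0, 145.9 and 128.5 units after 15 min and 312.5 and 236.0 units after 120 min, a late course. CKX1 gave 84.1, 75.8, 42.2 and 80.5 units after BA, against 47.4, 36.8 and 75.9 units with solvent, where array 3 was the lowest treated and the highest solvent array. The gene lies in a tandem row of similar glutaredoxin genes, so that cross-hybridisation between them is uncertain. Its neighbours AT4G15660, AT4G15690 and AT4G15700 missed the ratio, at 1.13, 1.44 and 0.863.

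Of these neighbours, AT4G15690 had 31.4 and 18.9 units with solvent in Col-0, 45.2 and 119.8 units after 15 min and 71.6 and 46.5 units after 120 min. In CKX1 it had 32.3, 27.9, 4.4 and 26.8 units after BA, against 11.8, 7.0 and 12.9 units with solvent. As for AT4G15680, CKX1 15 min array 3 was the lowest of its group. Among all 28 listed probe sets for genes within 2 places of a listed member, 0 met the rule and 1.44 was the highest ratio. One of these neighbours, AT3G52230, overlaps the member AT3G52240 in the gene table and had a ratio of 0.803.

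AT4G37220 belongs to the WCOR413 family of cold-acclimation membrane proteins. It had 41.8 and 51.7 units with solvent in Col-0, 94.6 and 149.4 units after 15 min and 384.7 and 300.9 units after 120 min, the largest ratio to solvent at 120 min in the set, 7.33. In CKX1 it had 22.0, 19.4, 7.2 and 26.7 units after BA, against 23.6, 24.9 and 112.6 units with solvent. All 4 treated CKX1 arrays lay below both Col-0 solvent arrays, and in each of the 3 same-numbered pairs the treated array was the lower one.

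The role of the remaining 5 listed genes is not stated here. AT1G49500 was the brightest, with 343.9 and 425.2 units with solvent in Col-0, 802.8 and 2549.2 units after 15 min and 1789.4 and 1823.3 units after 120 min. In CKX1 it had 699.3, 978.4, 2634.6 and 919.1 units after BA, against 341.6, 386.9 and 1705.1 units with solvent. The treated array was above its same-numbered solvent array in all 3 pairs, while the groups overlapped through solvent array 3. AT1G60010 had 90.9 and 79.2 units with solvent in Col-0, 167.3 and 351.0 units after 15 min and 315.1 and 328.4 units after 120 min. Its CKX1 values were 143.8, 43.3, 149.4 and 87.9 units after BA, against 109.3, 59.3 and 214.8 units with solvent, and these overlapped.

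AT1G68490 had 124.9 and 94.9 units with solvent in Col-0, 278.0 and 197.9 units after 15 min and 214.0 and 221.4 units after 120 min. In CKX1 its signals spread from 60.8 to 268.7 units after BA, against 65.4 to 115.4 units with solvent. AT3G52240 had 64.7 and 66.3 units with solvent in Col-0, 102.6 and 127.4 units after 15 min and 132.0 and 135.9 units after 120 min. For both genes the CKX1 groups overlapped, AT3G52240 ranging from 40.9 to 88.8 units after BA, against 59.4 to 88.5 units with solvent. AT5G24890 had 65.4 and 61.2 units with solvent in Col-0, 147.1 and 100 units after 15 min and 155.5 and 116.2 units after 120 min. Its CKX1 values were 62.7, 4.6, 68.5 and 46.3 units after BA, against 39.2, 48.9 and 84.0 units with solvent.

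**Figure D3:**
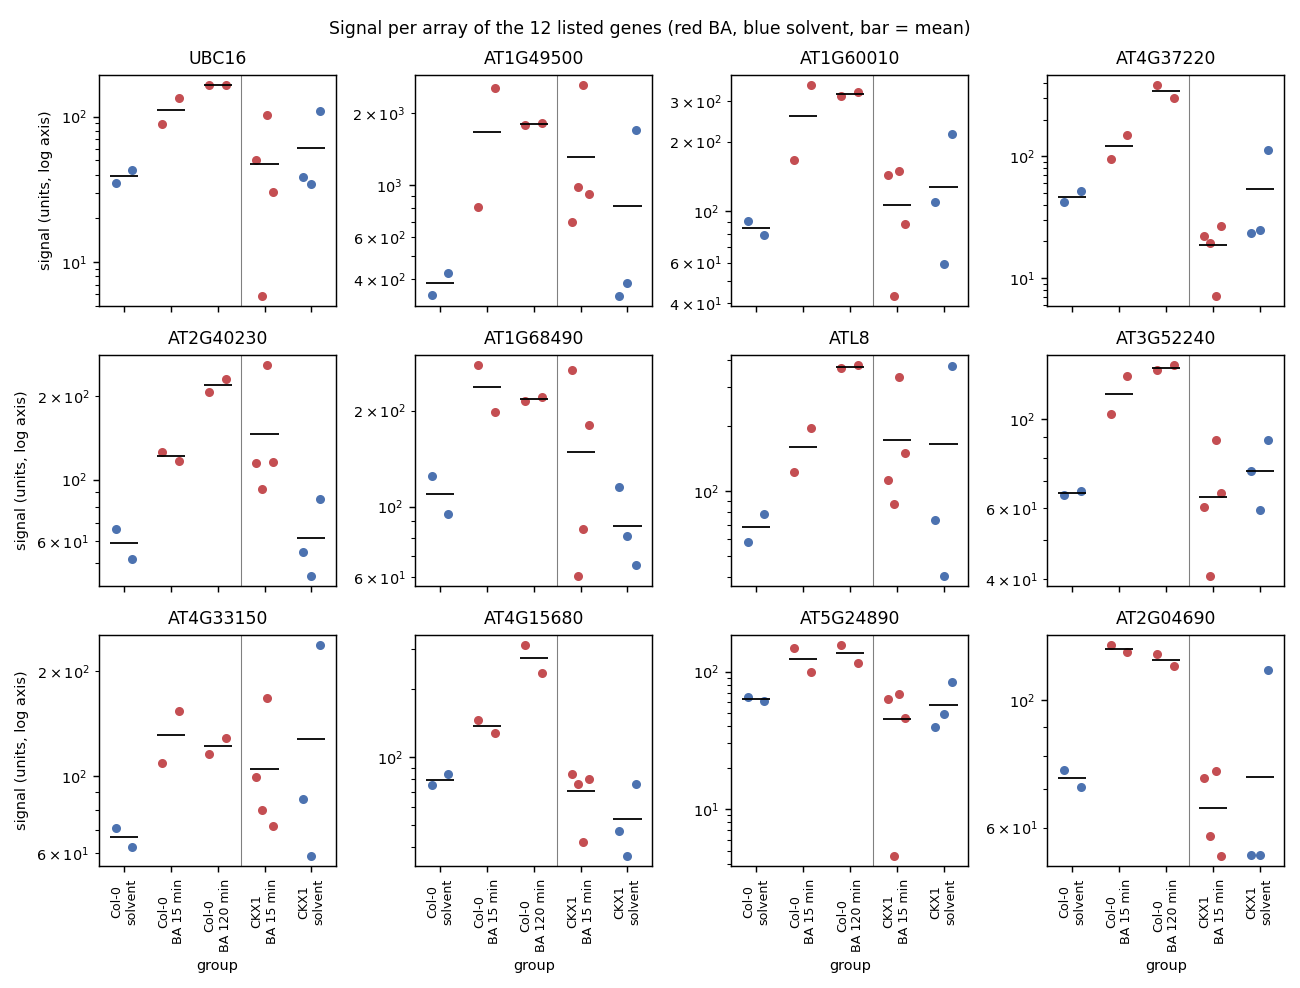
Signal in units on a log axis for the 12 listed genes, each point 1 array (red BA, blue solvent) and each bar the group mean, with Col-0 left of the grey line and CKX1 right of it. In Col-0 every BA point lies above the solvent points, as the rule required, and in CKX1 that holds for AT2G40230 only.

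Among unlisted probe sets, those of the largest ratio were 252374_at, 265067_at, 251665_at and 259466_at. Probe set 252374_at had 62.1 and 90.2 units with solvent in Col-0, 1032.4 and 919.8 units after 15 min and 435.0 and 393.0 units after 120 min. In CKX1 it had 380.1, 150.8, 931.5 and 317.8 units after BA, against 22.3, 37.9 and 32.6 units with solvent, with no overlap. Its peak at the early time in Col-0 was shared by 259466_at, which had 186.7 and 164.8 units with solvent, 1007.4 and 749.1 units after 15 min and 508.4 and 415.8 units after 120 min. The CKX1 arrays gave 310.6, 105.7, 235.0 and 179.3 units for 259466_at after BA, against 1.3, 52.0 and 3.5 units with solvent. Solvent signals of 1.3 and 3.5 units lie near the floor of 1, so its fold change rests on the pseudocount.

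Probe set 251665_at was steady, with 55 and 70.5 units with solvent in Col-0, 195.5 and 195.0 units after 15 min and 173.7 and 170.9 units after 120 min. In CKX1 it had 117.1, 85.4, 106.3 and 70.6 units after BA, against 28.5, 38.1 and 31.3 units with solvent. Its arrays numbered 3 lay within the range of the others in both CKX1 groups. By contrast 265067_at had 522.5, 213.4, 1725.4 and 481.9 units after BA in CKX1, against 201.1, 93.4 and 489.4 units with solvent, with array 3 the highest of each group. Its Col-0 signals were 135.6 and 164.6 units with solvent, 452.0 and 489.7 units after 15 min and 500.7 and 522.9 units after 120 min.

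The thresholds that chose the set used no CKX1 array, so BA at 15 min against solvent was tested in CKX1. The rule itself, with its exclusions by name, was set with earlier results of these data known. All 35 members passed the filter on low signals. In limma 0 of 35 passed an adjusted p of 0.05 in either direction, where 0.00628% of the probe sets tested were called higher and 0% lower, and the lowest adjusted p of a member was 1.00. At an unadjusted p under 0.05, 7 of the 35 were higher (20.0%), against 0.502% of all probe sets, and 0 were lower, against 0.22%. Without any effect a share of about 0.05 of all probe sets would be met, and both shares together lie far below that. The p-values of this model were thus too large as a group, so 0 of 35 does not show that the members did not respond. The median log2 fold change was 0.37 over the members and −0.00 over all 15922 probe sets. A log2 fold change above 0 was found for 24 of 35 (68.6%), against 49.8%.

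The same 7 were those whose 4 treated CKX1 arrays all lay above the 3 solvent arrays, which 1.13% of all probe sets did, and no member lay wholly below, as 0.829% did. AT2G40230 was the only listed gene among them. Its log2 fold change was 1.12 (SE 0.39, 95% interval 0.22 to 2.03, limma unadjusted p = 0.0203). The early-peaking 252374_at had 3.44 (SE 0.55), and 259466_at had 4.02 (SE 0.80), a value that ran from 2.84 with a larger pseudocount to 5.11 without solvent array 2. Probe set 251665_at had 1.43 (SE 0.26). The remaining 3, chosen after their values were seen, were 263236_at at 1.32 (SE 0.38), 267591_at at 1.13 (SE 0.31) and 265342_at at 0.83 (SE 0.26). Of these 7 probe sets, 4 had lower signals at 120 than at 15 min in Col-0, and solvent array 3 was the highest solvent array of CKX1 for 3. For 5 of the 7, all CKX1 solvent arrays lay below both Col-0 solvent arrays, against 9 of 35 members and 14.3% of all probe sets. Their fold changes in CKX1 thus start from a lower level than in Col-0.

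Among the other listed genes the log2 fold change in CKX1 was 0.89 (SE 0.64) for AT1G49500, 0.56 (SE 0.50) for AT1G68490, 0.49 (SE 0.74) for ATL8 and 0.40 (SE 0.34) for AT4G15680, and the unlisted 265067_at had 1.38 (SE 0.74). It was below 0 for AT4G37220 at −1.11 (SE 0.59), with a 95% interval of −2.45 to 0.24, for AT5G24890 at −0.64 (SE 0.74) and for UBC16 at −0.62 (SE 0.78). Values of −0.23 (SE 0.30) for AT3G52240, −0.22 (SE 0.54) for AT1G60010, −0.11 (SE 0.49) for AT4G33150 and −0.10 (SE 0.32) for AT2G04690 were the closest to 0. The 95% intervals of these 11 listed genes included 0, and the upper bound was at least 1 for 8 of the 11. All SEs and intervals given here come from the model that leaves the pairing of same-numbered arrays out. They therefore contain differences between pairs as well as those within them. The value of AT4G37220 was −0.42 without solvent array 3 and −0.09 without both arrays numbered 3. The upper bound was 0.46 for AT3G52240, 0.63 for AT2G04690 and 0.24 for AT4G37220.

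The replicate number paired 3 of the treated CKX1 arrays with a solvent array, while 15 min array 4 had no partner. As a fixed term, the block gave that array no weight in the fold change and left few arrays to estimate the error. With either kind of block 0 of 35 passed the adjusted threshold, where 0.00628% of all probe sets were called higher. This 0 does not show that the members did not respond. With the block as a fixed term 12 members were higher at an unadjusted p under 0.05, against 1.96% of all probe sets, and with a random term 9 were, against 2.62%. The treated array was above its solvent partner in all 3 pairs for 15 of 35 (42.9%), against 12.4% of all probe sets, and below in all 3 for 1 of 35, against 13.4%. That 1 was AT4G37220.

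Without both CKX1 arrays numbered 3, the treated arrays lay wholly above the solvent arrays for 16 of 35 members (45.7%), against 5.49% of all probe sets, and 11 were higher at an unadjusted p under 0.05, against 0.603%. Leaving out solvent array 3 alone gave 13 of 35 (37.1%), against 2.81%. With array weights 1 member passed, 252374_at (limma adjusted p = 0.0237), where 0.0126% of all probe sets were called higher. At an unadjusted p under 0.05, array weights gave 11 of 35, against 1.28%.

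**Figure D4:**
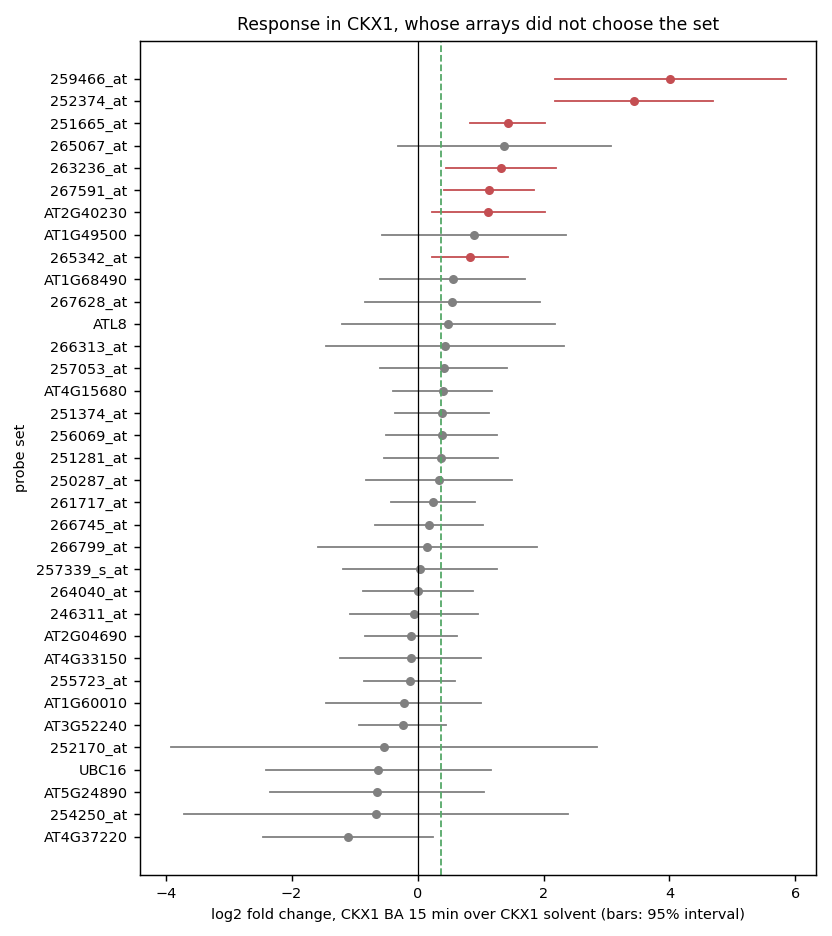
Log2 fold change in CKX1 after 15 min of BA over CKX1 solvent for the 35 probe sets (points) with 95% intervals (bars), red where the unadjusted limma p is under 0.05, and the green dashed line at the members' median of 0.37. The 7 red probe sets all lie above 0, AT2G40230 being the only listed gene among them, and AT4G37220 is the lowest at −1.11, a value that is −0.09 without both arrays numbered 3.

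Levels in CKX1 were also set against those in Col-0, without a test, since the Col-0 arrays had chosen the members. All 3 CKX1 solvent arrays lay below both Col-0 solvent arrays for 9 of 35, against 14.3% of all probe sets, and above for 2, against 9.65%. After 15 min of BA all 4 CKX1 arrays lay below both Col-0 arrays for 18 of 35, against 8.77%, a direction that choosing members for high Col-0 BA signals favours.

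Of the 62 loci in the lists of cytokinin signalling and metabolism, 4 had a listed probe set, 2 were tested in CKX1 and 0 passed in either direction. No receptor, phosphotransfer protein, cytokinin oxidase, synthesis gene or cytokinin response factor was among them. ARR15 had a log2 fold change in CKX1 of 1.40 (SE 0.49) and ARR16, listed as RR16, 0.68 (SE 0.57), while the type-B regulators RR18 and RR19 were too dim to test. In CKX1 ARR15 had 3.3, 11.4 and 3.2 units with solvent and 12.6 to 36.6 units after BA, without overlap. RR16 had 4.4 to 11.4 units with solvent and 4.8 to 37.2 units after BA. Both lie near the floor, so their fold changes rest on the pseudocount. Over all probe sets tested, 0.00628% passed as higher and 0% as lower. A count of 0 in a list therefore does not show that its genes did not respond. Of the 41 loci in the other lists 13 were tested and 0 passed. They included STZ at −1.72 and WRKY53 at 0.01 for rapid stress, AT3G10040 at −0.39 for low oxygen, and GH3.3 at 0.30 and WES1 at −0.31 for early auxin. Reference genes had −0.08 for PEX4, −0.04 for AT2G28390 and −0.21 for AT4G34270. The root markers PYK10 and CO2 had −0.13 and −0.41, the root hair markers EXPA7 and EXPA18 0.28 and 0.17, and LHCB4.1 of green tissue 0.16, so root and shoot transcripts were both measured. Of these lists only ARR15, which is left out of the set by name, met the thresholds of the rule in Col-0.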

How the data were processed

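Per the labels, the centre that hybridised the arrays normalized the data, and the deposited values are linear signal intensities, 1 for each probe set on each array. The sources used here name neither software nor scaling, and the dose of BA is not stated in the labels. Each of the 13 arrays has 1 column, and 0 columns stayed unused. Of 22810 rows, 64 controls were left out, and values under 1 were set to 1. Probe sets were named from the platform annotation and the RefSeq gene table for assembly TAIR10.1: 1 gene was found for 13513 probe sets and several for 503, and 8730 are absent from the list.

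The members were found on deposited signals. CKX1 after 15 min was compared with CKX1 with solvent by limma 3.58.1 in R 4.3.3, on log2(signal + 3.39), where 3.39 is 0.1 of the table's median of 33.9. The linear model took the 7 CKX1 arrays alone, with an intensity trend, because the Col-0 arrays had chosen the members. Probe sets with a mean log2 value under the 30th percentile of these arrays were left out, which kept 15922, and p-values were adjusted by the Benjamini-Hochberg method over all of them with a threshold of 0.05. The model was also run on simulated data with independent noise on each array. That run lacked the replicate effect described next, so it does not show how the model behaves on these arrays. Same-numbered CKX1 arrays deviated together from their group means, with correlations of 0.63, 0.59 and 0.73 across probe sets, so the replicate number was also fitted as a block.

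The members and the gene lists were chosen with earlier results of these data known. Every listed gene among the members is named, with the 4 unlisted probe sets of the largest ratio. Probe sets nearest the thresholds, those left out by name, members flagged by their gap and genes of the lists are named too. The neighbours described and the further unlisted probe sets without overlap in CKX1 were chosen after their values were seen. Lists covered cytokinin signalling and metabolism, touch and rapid stress, low oxygen, early auxin, reference genes, and root hair, root and green tissue markers. A search for promoter motifs was planned and is not analysed here. Alternatives were other scalings, pseudocounts, filters, variance models, blocks and left-out arrays, and other thresholds of the rule.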

Additional observations from a re-analysis of the deposited data

Results flagged for a closer look

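In 7 of the 35 members the gap between CKX1 15 min array 3, the highest of its group, and the next array was larger than Dixon's critical value for 4 arrays allows, as a share of their range. About 1 in 20 groups is picked out in this way by chance, but of all 15922 probe sets 9.46% were picked out in this group, and 4.81% with array 3 as the highest, against 20.0% of the members. The gap was 0.856 of the range for AT1G49500 (2634.6 against 978.4 units), 0.862 for AT2G40230 (258.9 against 115.8 units) and 0.859 for 257053_at (469.6 against 206.3 units). It was 0.961 for 252170_at (1107.6 against 50.8 units), 0.923 for 254250_at (228.8 against 18.9 units), 0.861 for 257339_s_at (280.8 against 105.4 units) and 0.831 for 246311_at (103.7 against 46.3 units). The same array had the highest 25S control signal of the series, 803.7 units, and the part of that difference in these values was not tested.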

How the results depend on the processing

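The number of members was 7 with a ratio of 2, 114 with a laxer ratio than 1.5, and 221 with Col-0 15 min array 1 as the only BA array, a setting chosen after seeing the data. It ranged from 37 to 642 when a Col-0 array was left out, which can only relax the rule. The number was 24 with a level of 100 and 44 with a level of 25. It was 41 with arrays scaled to the same median, where 30 of the 35 were kept. In CKX1 the count past the adjusted threshold was 0 in 18 of 19 alternatives and 1 with array weights, where 0.0126% of all probe sets were called higher. Members higher at an unadjusted p under 0.05 numbered 11 with array weights, against 1.28% of all probe sets. They numbered 12 with the replicate block as a fixed term, against 1.96%, and 11 without both arrays numbered 3, against 0.603%. Without single arrays they numbered 6 to 10, against 0.333% to 0.93%. Members without overlap numbered 7 to 13 without single arrays, against 2.05% to 4.47% of all probe sets. Without both arrays numbered 3, a setting chosen after seeing the data, they numbered 16, against 5.49%. Of the 19 members whose log2 value is given, 13 kept their sign in the alternatives that measured them and 6 did not, and AT4G37220, one of the 13, was left out by the filter at the 50th percentile and ranged from −1.47 to −0.09 elsewhere. AT4G33150 turned to 0.037 with the fixed block and 0.21 without both arrays numbered 3, where AT2G04690 had 0.17 and AT1G60010 0.026. Without single CKX1 arrays these ranged from −0.52 to 0.45, −0.27 to 0.24 and −0.66 to 0.24, UBC16 from −1.14 to 0.037, AT5G24890 from −0.96 to 0.093 and ATL8 from −0.17 to 1.39. The cause was not tested.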
